A study of Mus musculus with 7 samples.

Results

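The 36 genes described here mark microglia, the resident macrophages of the brain, and related myeloid cells. All probe sets that the platform annotation assigns to exactly 1 of them were taken, dim ones included, which gave 55 of the 45037 probe sets on the arrays and all 36 genes, of 18193 genes with a probe set of their own. The rule used no measured value, but the genes were chosen with earlier results of these data known. Most of the genes are highest in myeloid cells, but Lgmn and Cyba are also transcribed in many other cells, and Mrc1 and Pf4 are known from macrophages at the borders of the brain and, for Pf4, from platelets.

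RNA came from cerebellar cells sorted from mice of the genotype Math1-Cre/Ptc-loxp/Nestin-CFP, shared by all samples. Math1-Cre acts in the granule neuron lineage, where it removes Ptch1, the receptor that holds the Hedgehog pathway in check, so that cells outside this lineage, microglia among them, keep the floxed gene. The Nestin-CFP reporter split the sorted granule neuron precursors into a Nestin-positive fraction (4 arrays, replicates 1, 3, 4 and 5) and a Nestin-negative fraction (3 arrays, replicates 1, 4 and 5). Neither fraction was cultured or treated. The sample labels give postnatal day 7 and the tissue as medulloblastoma, whereas the text of the series gives postnatal day 4. The labels do not say that samples came from separate animals, so the p-values measure only the spread between these samples, part of which may be technical.

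Microglia enter the brain from the yolk sac and depend on signalling through Csf1r. Their identity is set by the transcription factors PU.1 (Spi1) and Irf8, and they survey the tissue through purinergic and chemokine receptors such as P2ry12 and Cx3cr1. They take up dying cells and debris, a task for which they use complement C1q, Trem2 with its adaptor Tyrobp, Fc receptors and lysosomal proteases. In the early postnatal cerebellum they lie in the white matter and among the developing granule neurons.

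Each value below is the authors' MAS5 signal, a probe set's intensity on a linear scale, and each array's median over all probe sets (64.4 to 94.5) marks the level under which a signal counts as dim. Nes, which defined the sort, had a signal of 478, 829, 722 and 543 on Nestin-positive replicates 1, 3, 4 and 5 and of 179, 174 and 217 on Nestin-negative replicates 1, 4 and 5 and was thus higher on every Nestin-positive array (block log2 change 1.60 ± 0.17 SE, adjusted p = 0.0015). All 15 measured genes of the granule neuron precursor list lay at or above the array median on all 7 arrays, Atoh1, Barhl1 and Pax6 among them. The list also holds genes of dividing cells in general, such as Mki67 and Top2a. With 7 arrays, precision is limited by their number.

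Genes of microglia and macrophages were lower in Nestin-positive than in Nestin-negative cells. Csf1r, C1qa, C1qb, C1qc, Tyrobp, Ctss, Lyz2 and Mpeg1 were among 20 of the 36 that fell in the fit with the replicate number as a block (55.6%, against 1.93% of all genes called lower in it), and none rose (0.522% of all genes did). With the replicate number as a random block, at an estimated correlation of 0.39, 2 of the 36 were called, Csf1r and Lyz2 (96 of all 45037 probe sets were called lower). The median log2 change over the 36 brightest probe sets was -1.99, against -0.05 over the brightest probe set of all genes. Negative changes were seen for 34 of the 36, against 55.9% of all genes, and Trem2 and Tmem119 had positive ones that passed no test. In 26 of the 36 (72.2%) every Nestin-positive array lay below every Nestin-negative array, which held for 7.76% of all genes; none lay wholly above, as 4.38% of all genes did. On signals divided by the array median, a scale added after the data were seen, this held for 16 of the 36 and 3.36% of all genes, and on quantile-normalised signals for 18 and 6.16%. Below, overlap refers to the signals as deposited. The shares over all genes to set beside later counts are 1.93% called lower with the block and 7.76% wholly lower. In addition, 32 of the 36 (88.9%) were lower in all 3 same-numbered pairs of arrays, against 21.7% of all genes. In such sorted pools, fewer cells of a type and less RNA per cell cannot be told apart.

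Without the block, limma called none of the 55 probe sets over the 45037 tested (adjusted p from 0.175 to 0.976) and none of all probe sets (0% called lower). At an unadjusted p under 0.05, 27 of the 36 genes were lower (75%, against 6.60% of all genes), and 37 of the 55 probe sets were lower and 0 higher (4.67% and 2.85% of all probe sets). With the block, 24 of the 55 probe sets were called lower and 0 higher (1.16% and 0.373% of all). The block rests on a pairing read from these data and not stated in the labels, and its SE and p-values borrow most of their spread from other probe sets. When each dim signal was replaced by its array's median, the block called 11 genes (1.90% of probe sets tested were lower), 10 of them among the 20, and the median log2 change without the block was -0.90 over the 33 genes that kept a value. The calls of Cx3cr1, Gpr34, Fcer1g, Fcgr3, Ptprc, Cd53, Cd52, Ly86, Mrc1 and Ccl3 were lost that way.

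**Figure D1:**
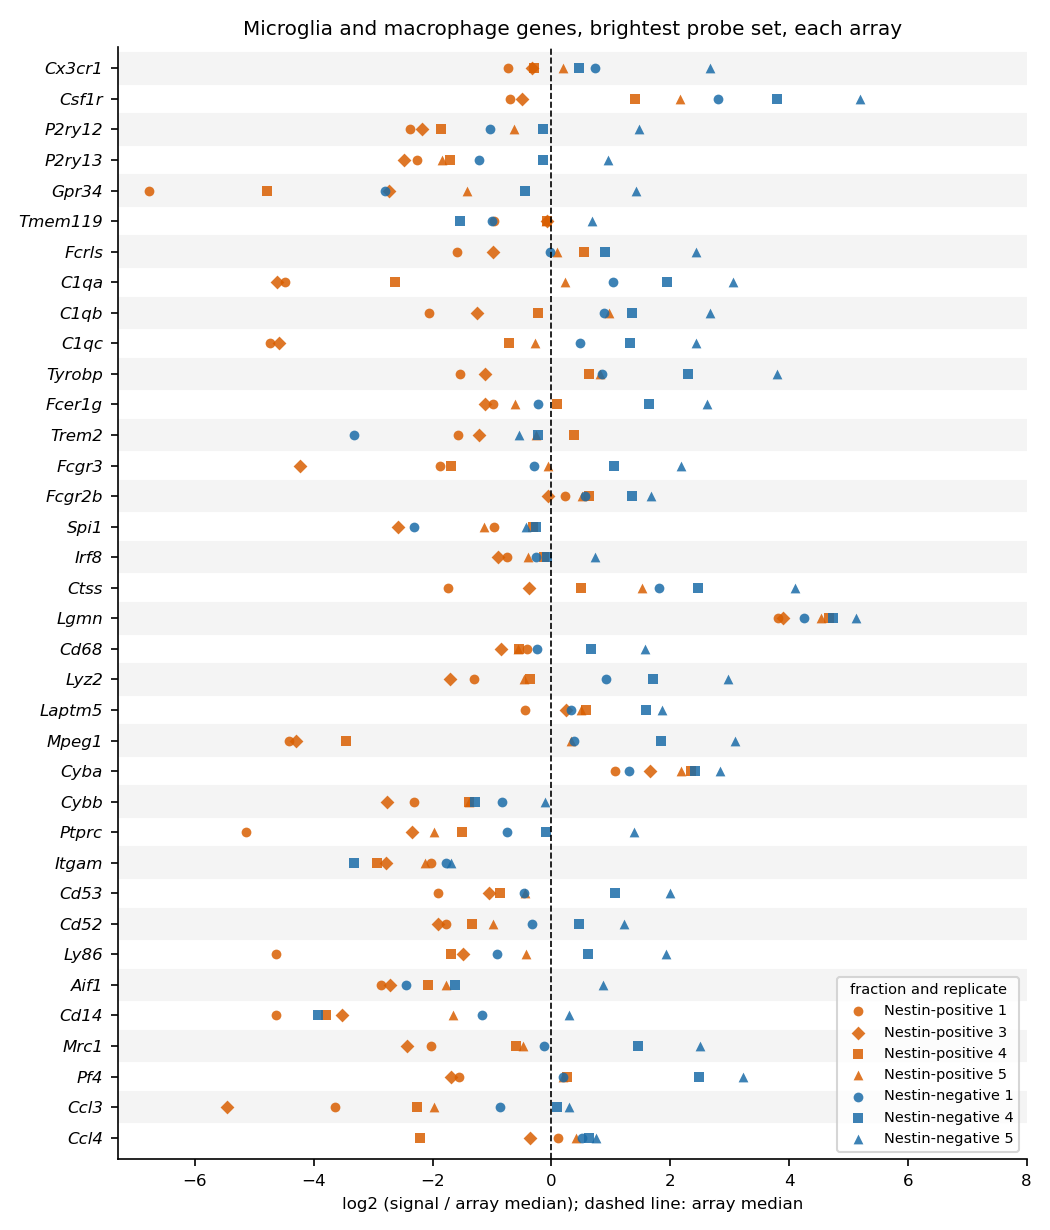
Signal of the brightest probe set of each of the 36 genes on each array, as log2 of the signal over the array median, with 1 point per array (orange, Nestin-positive; blue, Nestin-negative; the marker gives the replicate number). Overlap in the text is judged on signals not divided by the median. The dashed line is the array median, and 20 of the 36 genes lie left of it on all 4 Nestin-positive arrays.

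The arrays differed within each fraction as well. Among the Nestin-positive samples, 4, 3, 11 and 14 of the 36 genes reached their array's median in replicates 1, 3, 4 and 5, and among the Nestin-negative samples 15, 24 and 32 did in replicates 1, 4 and 5, while the share over all genes lay between 56.7% and 61.6% on every array. For 32 of the 36 the signal peaked in Nestin-negative replicate 5, and for 21 the top of the Nestin-positive samples was replicate 5. The summed signal of the 36 probe sets was 2624, 2620, 3573 and 4303 on the Nestin-positive arrays and 5773, 8272 and 16515 on the Nestin-negative arrays, in the same order of replicates. Lgmn made up 1323 of the first of these sums, and without Lgmn and Cyba they were 1103, 1102, 1597 and 2356 against 3736, 5877 and 13447. With and without these genes, the sums of the fractions did not overlap. Within replicates 1, 4 and 5 the Nestin-negative sum was 2.20, 2.32 and 3.84 times the Nestin-positive one, or 3.39, 3.68 and 5.71 times without Lgmn and Cyba. Within the pairs, the median log2 difference was -1.48 in replicate 1, -1.78 in replicate 4 and -2.37 in replicate 5, where 33, 33 and 35 of the 36 were lower in the Nestin-positive array.

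**Figure D2:**
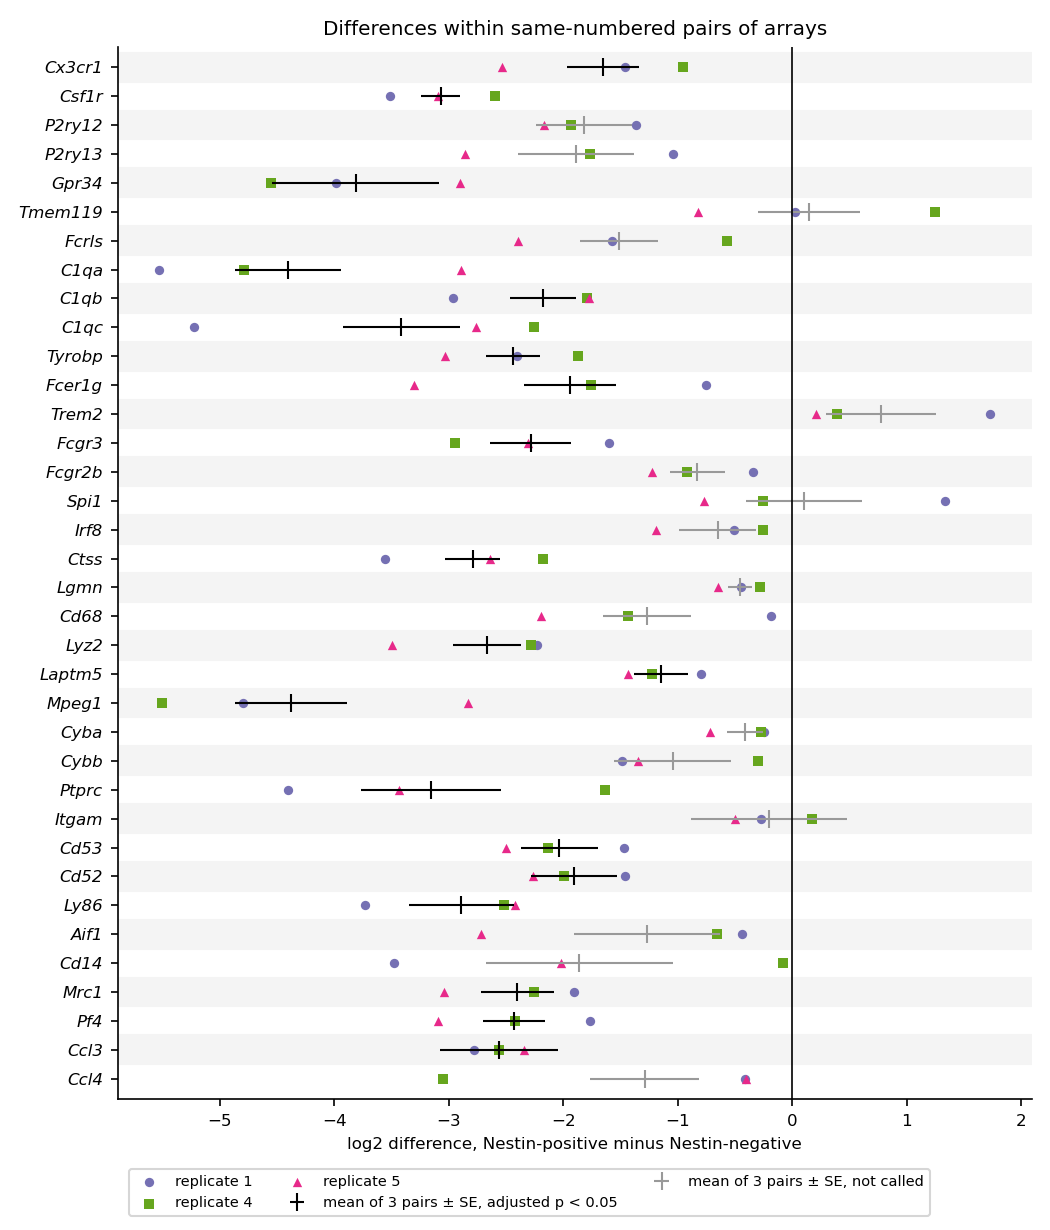
Log2 difference of the brightest probe set between the Nestin-positive and Nestin-negative array of each same-numbered pair (coloured markers), with the fitted mean of the 3 pairs ± SE (black where the adjusted p is under 0.05, grey otherwise). The 20 genes in black all lie left of 0, and Spi1, Tmem119 and Itgam have markers on both sides of it.

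Many of these genes are known targets of PU.1, which binds the PU box, with the core GAGGAA. RefSeq gives a promoter window (GRCm38.p6) for 27 of the 36 genes, and the core stood on either strand in the 250 bases before a start in 16 of the 27 (59.3%), against 25.9% of the 27025 genes with a window. Among those 27, it was present in 10 of the 15 that fell with the block and in 6 of the other 12. The longer GAGGAAGT, which overlaps it, stood in 2 of the 27 (C1qc and Pf4) and in 2.79% of all genes. A match is a description of these letters and not a bound site. The windows of the 5 genes with the core, 1 listed start and the smallest p-values of the block are shown, 5′ to 3′ on the gene's strand up to the base before the annotated start, with each core or its reverse complement in capitals.
Ctss (chr3:95526536-95526785, plus strand): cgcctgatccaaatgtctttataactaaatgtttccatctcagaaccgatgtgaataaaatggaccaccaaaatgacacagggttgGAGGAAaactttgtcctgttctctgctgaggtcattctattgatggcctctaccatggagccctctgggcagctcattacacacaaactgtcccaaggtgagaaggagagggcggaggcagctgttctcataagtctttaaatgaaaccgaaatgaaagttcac
Pf4 (chr5:90772185-90772434, plus strand): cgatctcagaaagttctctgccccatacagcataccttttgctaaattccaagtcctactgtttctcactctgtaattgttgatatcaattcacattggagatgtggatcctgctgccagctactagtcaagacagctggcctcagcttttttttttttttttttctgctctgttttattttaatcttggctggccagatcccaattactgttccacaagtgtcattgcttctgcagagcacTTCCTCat
C1qb (chr4:136886201-136886450, minus strand): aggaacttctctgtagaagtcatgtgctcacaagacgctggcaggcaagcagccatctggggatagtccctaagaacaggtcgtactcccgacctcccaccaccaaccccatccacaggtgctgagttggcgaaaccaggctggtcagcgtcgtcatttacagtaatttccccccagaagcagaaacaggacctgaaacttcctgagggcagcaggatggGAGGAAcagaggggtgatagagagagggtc
Mrc1 (chr2:14229164-14229413, plus strand): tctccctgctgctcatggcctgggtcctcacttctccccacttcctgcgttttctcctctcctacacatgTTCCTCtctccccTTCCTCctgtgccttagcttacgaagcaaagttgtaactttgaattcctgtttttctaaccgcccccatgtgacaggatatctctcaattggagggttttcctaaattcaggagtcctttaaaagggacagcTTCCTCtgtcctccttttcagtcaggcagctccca
C1qc (chr4:136892915-136893164, minus strand): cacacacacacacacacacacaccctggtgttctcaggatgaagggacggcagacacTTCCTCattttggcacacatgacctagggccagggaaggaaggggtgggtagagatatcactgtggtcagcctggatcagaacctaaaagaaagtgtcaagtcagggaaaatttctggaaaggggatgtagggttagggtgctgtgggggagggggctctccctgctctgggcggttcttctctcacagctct
The core nearest the start began 164 bases before it in Ctss, 8 in Pf4, 30 in C1qb, 35 in Mrc1, which held 3, and 193 in C1qc.

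Of the 7 receptors and surface proteins of homeostatic microglia, 3 fell with the block (1.93% of all genes did), namely Csf1r, Cx3cr1 and Gpr34. The others did not pass. Csf1r, the receptor for the survival factors Csf1 and Il34, had a signal of 57.8, 60, 171 and 314 on Nestin-positive replicates 1, 3, 4 and 5, and of 659, 1034 and 2687 on Nestin-negative replicates 1, 4 and 5. The groups did not overlap, and the signal was dim in Nestin-positive replicates 1 and 3. It fell by 3.07 ± 0.17 (SE) on the log2 scale with the block (adjusted p = 2.6e-05, n = 3 pairs), and with dim values raised the difference without the block was 8.54-fold. Cx3cr1, the receptor of the neuronal chemokine Cx3cl1, gave 56.8, 67.2, 52.5 and 80.2 in Nestin-positive and 157, 102 and 466 in Nestin-negative cells (block log2 change -1.65 ± 0.31 SE, adjusted p = 0.0280). All 3 Nestin-negative arrays exceeded their array median, but of the Nestin-positive arrays only replicate 5 did. The call was lost with dim values raised (block adjusted p = 0.0523).

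Gpr34, a lysophosphatidylserine receptor, had signals of 0.855, 12.7, 2.33 and 26.2 against 13.5, 54.8 and 196, overlapping between the fractions. It fell with the block (adjusted p = 0.0288) but lay under the median on all Nestin-positive arrays and on 2 Nestin-negative ones, so its size is not given as a fold. P2ry12, the ADP receptor of ramified microglia, gave 18, 18.5, 17.7 and 45.1 against 46.2, 67.7 and 203. The neighbouring gene P2ry13 gave 19.7, 15.2, 19.8 and 19.6 against 40.5, 67.2 and 143. Both had non-overlapping groups and failed the test with the block (adjusted p = 0.0639 and 0.117), and only Nestin-negative replicate 5 exceeded its array median for either. Fcrls, an Fc receptor-like protein of mouse microglia, gave 31.1, 42.7, 94.2 and 74.8 against 92.7, 140 and 394, with an overlap at Nestin-positive replicate 4 (block adjusted p = 0.0569).

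Tmem119, a membrane protein widely used to tell microglia from other macrophages, did not pass the test. Its signal was 47.8, 80.2, 61.1 and 66.1 in Nestin-positive and 47.1, 25.7 and 117 in Nestin-negative cells. The fractions overlapped and the log2 change was 0.27 ± 0.51 (SE, limma adjusted p = 0.970), with a negative sign when dim values were raised (-0.28). It lay under the array median on 6 of the 7 arrays, the exception being Nestin-negative replicate 5, so no direction can be given for Tmem119.

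All 3 chains of C1q, the recognition protein that starts the classical complement pathway, fell with the block. The genes lie next to each other in the order C1qb, C1qc and C1qa. C1qa gave 4.18, 3.43, 10.4 and 81.9 in Nestin-positive and 193, 286 and 609 in Nestin-negative cells (block log2 change -4.40 ± 0.46 SE, adjusted p = 0.0013). C1qc gave 3.50, 3.52, 39.2 and 57.9 against 131, 187 and 394 (-3.42 ± 0.51, adjusted p = 0.0086). The brightest C1qb probe set gave 22.5, 35.2, 55.2 and 137 against 175, 191 and 468 (-2.18 ± 0.29, adjusted p = 0.0046).

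In each of these genes the Nestin-positive arrays lay below all Nestin-negative arrays, and Nestin-positive replicate 5 was the highest of its fraction. C1qc was under the median on all 4 Nestin-positive arrays, which makes it at least 2.76-fold lower, and with dim values raised C1qa was 4.02-fold and C1qb 2.74-fold lower. The large fitted changes of C1qa and C1qc thus rest on signals far under the array median. All 3 kept their calls with the block when dim values were raised.

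Tyrobp and Fcer1g, the signalling adaptors whose ITAM motifs pass on signals from Trem2 and Fc receptors, fell with the block. Tyrobp gave 32.3, 39, 99.8 and 124 in Nestin-positive and 171, 366 and 1014 in Nestin-negative cells (log2 change -2.44 ± 0.24 SE, adjusted p = 0.00086), or 4.01-fold lower without the block and with dim values raised (2.52-fold without Nestin-negative replicate 5, 6.13-fold without Nestin-negative replicate 1). Fcer1g gave 47.6, 38.9, 68.8 and 45.6 against 80.4, 233 and 450 (-1.94 ± 0.40, adjusted p = 0.0406). Both had non-overlapping groups. Fcgr3, an activating IgG receptor, gave 25.5, 4.50, 20.1 and 67.4 against 77.4, 154 and 334. It fell (block adjusted p = 0.0102) and, under the array median in all Nestin-positive samples, was at least 2.05-fold lower.

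Fcgr2b, the inhibitory IgG receptor, gave 110, 81.1, 100 and 101 against 140, 190 and 234 with its brightest probe set, which did not overlap between fractions but failed the test (block log2 change -0.83 ± 0.24 SE, adjusted p = 0.153). Trem2, the lipid-sensing receptor that signals through Tyrobp, had a positive change with its brightest probe set, whose signals of 31.6, 36.1, 83.7 and 58.3 against 9.50, 63.8 and 50.4 overlapped and lay under the median on 6 arrays. Its other probe set, dim on 6 arrays as well, gave 15.2, 4.23, 2.80 and 3.29 against 15.5, 7.16 and 87.7. Neither passed (block adjusted p = 0.603 and 0.453), so no direction can be given for Trem2.

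Neither of the 2 transcription factors of the list passed the test. Spi1 lay under the median on all 7 arrays, with 47.9, 14, 51.7 and 31.8 in Nestin-positive and 18.9, 61.8 and 54.2 in Nestin-negative cells, and differed by -0.30 ± 0.63 (SE) on the log2 scale without the block and by 0.10 ± 0.51 with it (limma adjusted p = 0.973 and 0.969). Irf8 gave 55.7, 45.4, 59.2 and 53.4 against 79.4, 70.6 and 122. Its groups did not overlap, and Nestin-negative replicate 5 alone exceeded the array median, but it failed the test (block adjusted p = 0.512). The other Irf8 probe set gave 68.7, 6.94, 53.1 and 43 against 44.6, 116 and 119, above the median in Nestin-negative replicates 4 and 5, with overlap (block adjusted p = 0.630).

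Of 8 lysosomal, protease and bactericidal genes, 4 fell with the block (1.93% of all genes did), and 7 had non-overlapping groups (7.76%). Ctss, a cathepsin of antigen-presenting cells, gave 28.1, 65, 90.6 and 203 in Nestin-positive and 332, 410 and 1262 in Nestin-negative cells (block log2 change -2.79 ± 0.24 SE, adjusted p = 0.00047), and with dim values raised was 5.07-fold lower. Lyz2, the lysozyme of macrophages and neutrophils, gave 38, 25.7, 50.2 and 51.1 against 178, 244 and 576. It was under the array median in every Nestin-positive sample and thus at least 3.79-fold lower (block adjusted p = 0.0018).

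Mpeg1, the pore-forming perforin-2 of phagocytes, gave 4.40, 4.27, 5.88 and 88.2 against 122, 267 and 627 (block log2 change -4.38 ± 0.49 SE, adjusted p = 0.0019; 3.34-fold lower with dim values raised). Laptm5, a lysosomal membrane protein of blood-derived cells, gave 68.6, 99.4, 96.2 and 98.6 against 119, 224 and 267 (-1.15 ± 0.24, adjusted p = 0.0382). All of these had non-overlapping groups. Without Nestin-negative replicate 5 the fold of Ctss was 3.36 and that of Mpeg1 2.21. A filter that kept genes at or above the array median in 3 arrays passed 17 of the 36, 13 of them with the help of the Nestin-negative arrays, where they are high. Nothing is therefore read from the 2 of the 17 called without the block after it, Csf1r and Lyz2 (0.577% of the 11089 filtered genes were called lower).

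Lgmn and Cyba, the genes of the list with wider expression, lay above the array median on all 7 arrays and differed least within this group. Lgmn, the lysosomal asparaginyl endopeptidase, gave 1323, 1253, 1646 and 1630 in Nestin-positive and 1803, 1996 and 2547 in Nestin-negative cells (block log2 change -0.46 ± 0.11 SE, adjusted p = 0.0674; 0.0436 with dim values raised, where fewer probe sets were tested). Cyba, the small subunit of the phagocyte NADPH oxidase, gave 198, 265, 330 and 316 against 235, 399 and 521, with overlap (block adjusted p = 0.313). Cybb, the catalytic subunit, was under the median on all 7 arrays (19, 12.4, 24.7 and 26.7 against 53.1, 30.4 and 67.9, block adjusted p = 0.472). Cd68, a lysosomal glycoprotein, gave 70.3, 46.5, 43.9 and 47.5 against 79.8, 119 and 218, without overlap, and failed the test (block adjusted p = 0.170).

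**Figure D3:**
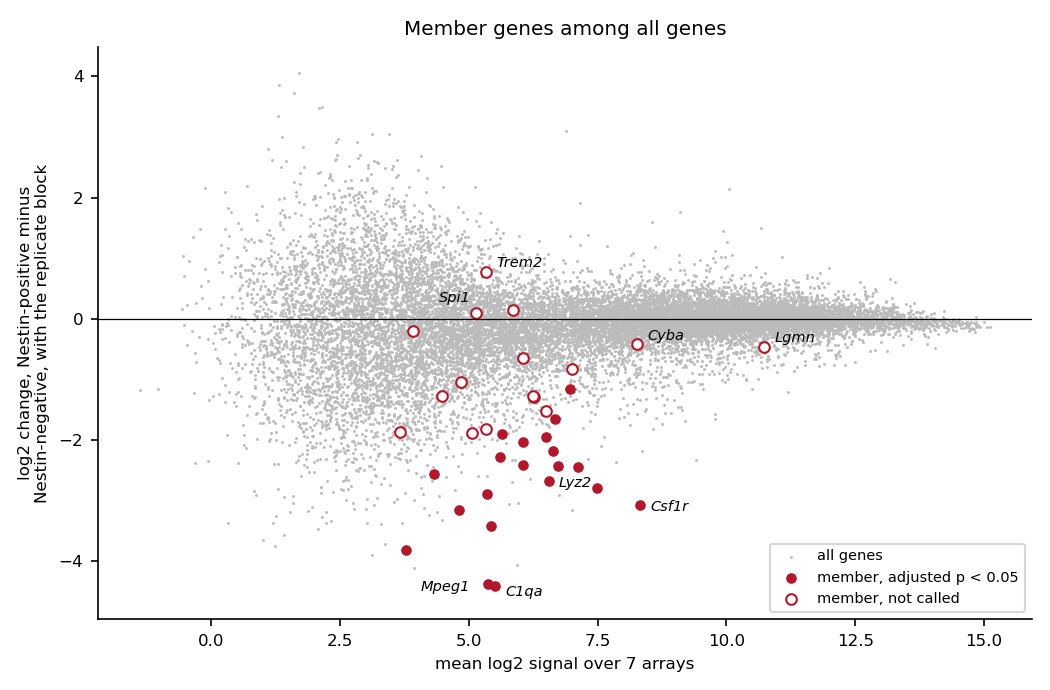
Mean log2 signal over the 7 arrays against the log2 change with the replicate block, for the brightest probe set of 18193 genes (grey) and of the 36 members (red, filled where the adjusted p is under 0.05). Csf1r lies at -3.07, below the grey points of like signal, and Lgmn and Cyba lie near 0.

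Among 7 leukocyte surface and cytoskeleton genes, Ptprc, Cd53, Cd52 and Ly86 fell with the block. Ptprc, which encodes the pan-leukocyte phosphatase CD45, gave 2.66, 16.5, 22.6 and 17.8 in Nestin-positive and 56.4, 70.1 and 192 in Nestin-negative cells (adjusted p = 0.0303). Cd53, a leukocyte tetraspanin, gave 25, 40.9, 35.3 and 51.8 against 69.1, 155 and 293 (adjusted p = 0.0149), and was at least 1.90-fold lower. Cd52, a small surface glycoprotein of leukocytes, gave 27.6, 22.4, 25.6 and 35.5 against 75.6, 102 and 171 (adjusted p = 0.0318; at least 1.42-fold lower).

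Ly86, the partner of the Toll-like protein Cd180, gave 3.76, 30, 20 and 52.1 against 49.9, 115 and 279, where Nestin-positive replicate 5 reached above Nestin-negative replicate 1 (adjusted p = 0.0118). The bounds of Ptprc and Ly86 rest on Nestin-negative replicate 5, without which they fall under 1, so no fold is given for these genes. The other 3 genes of this group did not pass (block adjusted p from 0.409 to 0.953). Aif1, the calcium-binding protein Iba1, exceeded the array median on Nestin-negative replicate 5 alone (12.8, 12.8, 15.3 and 20.4 against 17.3, 24.1 and 134).  Cd14, the co-receptor for lipopolysaccharide, gave 3.76, 7.32, 4.62 and 22.3 against 42.1, 4.88 and 90.2, with overlap. Itgam, the complement receptor subunit CD11b, was under the array median on all 7 arrays, at 7.43 to 27.8.

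Mrc1 and Pf4 both fell with the block. Mrc1, the mannose receptor of perivascular and meningeal macrophages, gave 23, 15.6, 42.7 and 50.6 in Nestin-positive and 86.3, 204 and 416 in Nestin-negative cells (log2 change -2.40 ± 0.32 SE, adjusted p = 0.0046) and was at least 2.52-fold lower (3.78-fold without Nestin-negative replicate 1). Pf4, a chemokine of platelets and border macrophages, gave 31.8, 26, 77.2 and 80.2 against 108, 414 and 684 (-2.43 ± 0.27, adjusted p = 0.0019), or 3.75-fold lower with dim values raised (6.37-fold without Nestin-negative replicate 1). Both folds shrank when Nestin-negative replicate 5, the highest array for either gene, was dropped. Mrc1 was then at least 1.72-fold and Pf4 2.53-fold lower. Neither gene's groups overlapped.

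The neighbouring chemokine genes Ccl3 and Ccl4 are induced in activated myeloid cells. Ccl3 gave 7.54, 1.92, 13.4 and 17.8 against 51.8, 79 and 90.5 and fell with the block (adjusted p = 0.0356). It was under the median in all Nestin-positive samples and in Nestin-negative replicate 1, and its Nestin-negative mean did not exceed the level set by the Nestin-positive array medians, so no fold is given. Ccl4 gave 101, 65.3, 13.9 and 93.4 against 135, 115 and 124, without overlap, and failed the test (block adjusted p = 0.296).

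Probe sets of 1 gene did not always give the same size of change. Of the 10 genes with more than 1, only Trem2 had probe sets of opposite sign. The 3 probe sets of Csf1r changed by -3.39 ± 0.67, -0.69 ± 0.33 and -2.81 ± 0.70 (SE, log2, without the block). The probe set with the smallest change gave 118, 96.5, 119 and 95.3 against 140, 121 and 299, above the median on all arrays, and failed the test with the block (adjusted p = 0.457). All 3 probe sets of C1qb were called with the block, at -2.18, -2.63 and -3.75. For Laptm5, 2 of 5 were called, at -1.15 and -2.46, and for Fcgr2b none of 5. By their suffixes, the probe sets that stand for Aif1 and Laptm5 can match several transcripts and that for C1qb may cross-hybridise.

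**Figure D4:**
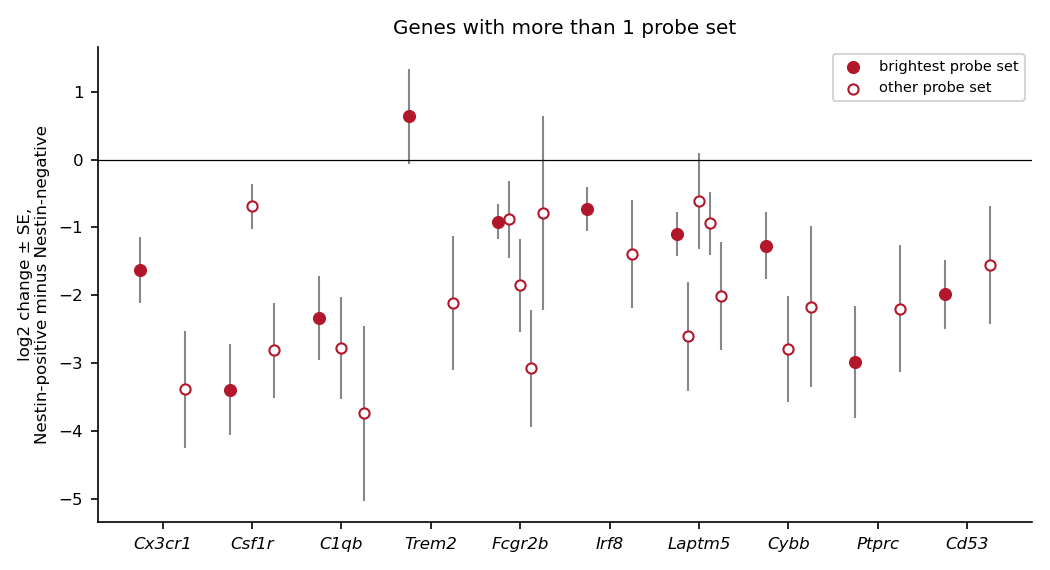
Log2 change ± SE without the block for every probe set of the 10 genes that have more than 1 (filled, the brightest; open, the others, in falling order of mean signal). Within Csf1r the changes run from -3.39 to -0.69, and Trem2 alone has a point above 0.

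Of 43 further microglia and myeloid genes, which the list does not hold, 37 had negative changes, with a median of -0.65. With the block 4 fell (1.93% of all genes did), while 19 were under the array median on every array. Those that fell were Adgre1, which encodes the macrophage antigen F4/80 (34.3, 24.2, 63.4 and 90.8 against 133, 147 and 339; block adjusted p = 0.0123), Coro1a, an actin regulator of leukocytes (adjusted p = 0.0073), Cd300a and, named after its value was seen, Arhgdib. With dim values raised, Cd300a and Arhgdib lost their calls (adjusted p = 0.481 and 0.0770). Alox5ap had non-overlapping groups but failed the test (adjusted p = 0.0615). Coro1a was above the median on all arrays, with 291, 291, 450 and 387 against 596, 721 and 768. Which cells this Coro1a signal came from was not tested.

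Border macrophage genes (22, median -0.92) held 1 gene that fell with the block (1.93% of all genes did), the lipid carrier Apoe. It gave 192, 349, 618 and 398 against 520, 1300 and 1435 (block adjusted p = 0.0012), with overlap between fractions. Apoe was above the median on all arrays, and which cells its signal came from was not tested. The MHC class II gene H2-Eb1 (adjusted p = 0.0592) and Cd74, its invariant chain, did not pass, nor did the transcription factor gene Maf. Of 20 measured genes of phagocytic microglia of the early postnatal brain (median -0.57), none passed with limma in either fit (5 at an unadjusted p under 0.05 without the block). Ctsb and Ctsd, cathepsins found in most cells, differed by -0.62 ± 0.19 and -0.54 ± 0.22 (SE, log2), Grn by -0.39 ± 0.17 and Clec7a by -1.41 ± 0.38. Among 20 chemokines and inflammatory cytokines (median -0.36) none passed in either fit (6 lower at an unadjusted p under 0.05 without the block). Il1b, Ccl9, Ccl6 and Cxcl2 were lower on every Nestin-positive array, at signals of 0.935 to 44.4 against 23.3 to 78.7.

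Monocyte and neutrophil genes (12 measured, median -0.92) held 3 that fell with the block (1.93% of all genes did). S100a8, a calcium-binding protein abundant in neutrophils, gave 2.27, 19.6, 84.6 and 31.3 against 93.8, 486 and 619 (adjusted p = 0.0022), and its partner S100a9 gave 13.5, 17.1, 50.6 and 51.6 against 70.8, 226 and 281 (adjusted p = 0.0048). With dim values raised, S100a8 and S100a9 lost their calls (adjusted p = 0.0532 and 0.0628). The third, Plac8, was named after its value was seen. The summed signal of this list was 746 to 1235 in Nestin-positive and 1034 to 2158 in Nestin-negative samples. All 14 lymphocyte and mast cell genes were under the array median on all arrays, and none of them or of the 4 measured red blood cell genes passed with limma in either fit (1 and 0 at an unadjusted p under 0.05 without the block).

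Ligands and signals that other cells present to microglia were also lower in part. Of 14, 4 fell with the block and none rose (1.93% and 0.522% of all genes did). Cd47, the inhibitory ligand of the phagocyte receptor Sirpa, gave 1235, 1472, 1876 and 1664 against 2842, 2990 and 2825 (block log2 change -0.88 ± 0.12 SE, adjusted p = 0.0049). Cd200, an inhibitory ligand of a myeloid receptor, gave 206, 205, 227 and 176 against 421, 340 and 352 (-0.87 ± 0.16, adjusted p = 0.0267). Cxcl12, the ligand of Cxcr4, fell (adjusted p = 0.00011), as did Mfge8, a bridge to dying cells that was named after its value was seen, while Pros1, a ligand of TAM receptors, had a positive change that failed the test (0.38 ± 0.15, adjusted p = 0.337). Complement genes outside C1q (9 measured, median 0.06) held 1 that fell, the C1 inhibitor gene Serping1, at 380, 237, 510 and 393 against 1185, 985 and 820 (adjusted p = 0.0027).

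Many markers of pericytes, smooth muscle and meningeal cells were lower in Nestin-positive samples too, while no endothelial marker was called (below). Pericyte and smooth muscle genes had a median log2 change of -1.82 over 13 genes, of which 6 fell with the block, with summed signals of 598 to 2106 in Nestin-positive and 1442 to 9750 in Nestin-negative samples. Meningeal fibroblast genes had a median of -1.62 over 12 genes, of which 7 fell, with sums of 4620 to 7244 and 6357 to 14317. Granule neuron differentiation genes (15, median -0.58, 7 lower with the block) had sums of 50348 to 61822 against 72879 to 82607. In replicates 1, 4 and 5 the Nestin-negative sum was 2.41, 3.65 and 4.66 times the Nestin-positive one for pericyte and smooth muscle genes and 1.27, 1.98 and 2.12 times for meningeal genes (for the 36 genes, 2.20, 2.32 and 3.84 times). The meningeal sums include Pdgfra, which is also in the oligodendrocyte list. It gave 2970, 2752, 3219 and 3234 against 3357, 3916 and 3321. The meningeal ratios thus depend on a gene that changed little (log2 change -0.21 ± 0.11 SE without the block). With dim values raised, Pdgfrb and Higd1b of the pericyte genes and Mgp of the meningeal genes lost their calls (adjusted p = 0.0523, 0.0750 and 0.0676); these 3 are named after their values were seen. No gene of any list was at 0 on any array (lowest signal 0.498). Their part in the result was not tested.

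Endothelial genes (16, median -0.49) had none called by limma in either fit (0 at an unadjusted p under 0.05 without the block), with sums of 4498 to 9243 and 3456 to 8520. Of the 16, 13 had negative changes. Much of these sums came from Itm2a, whose positive change failed the test (block log2 change 0.32 ± 0.13 SE, limma adjusted p = 0.33). Its signal was 3518, 4571, 5523 and 4249 on the Nestin-positive and 2158, 4794 and 4093 on the Nestin-negative arrays. Astrocyte and Bergmann glia genes (16, median -0.14 without the block and -0.58 with it) had 4 lower and 1 higher with the block. Their sums were 15710 to 44972 and 12491 to 31912, the largest on Nestin-positive replicate 3, which the block leaves out. Of the genes called lower, Fabp7 and Aldh1l1 were highest on that array, and Hopx and Aqp4 on Nestin-negative replicate 4. Without the block, Fabp7 differed by -0.08 ± 0.94 and Aldh1l1 by -0.70 ± 0.93 (SE, log2). These genes are named after their values were seen. Oligodendrocyte lineage genes (11, median -0.45) had 1 lower and 1 higher, with sums of 10837 to 13822 and 12394 to 14747. Granule neuron precursor genes (15, median -0.08) had 1 higher, Top2a, a topoisomerase of dividing cells, and sums of 93379 to 107381 and 94450 to 101477.

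**Figure D5:**
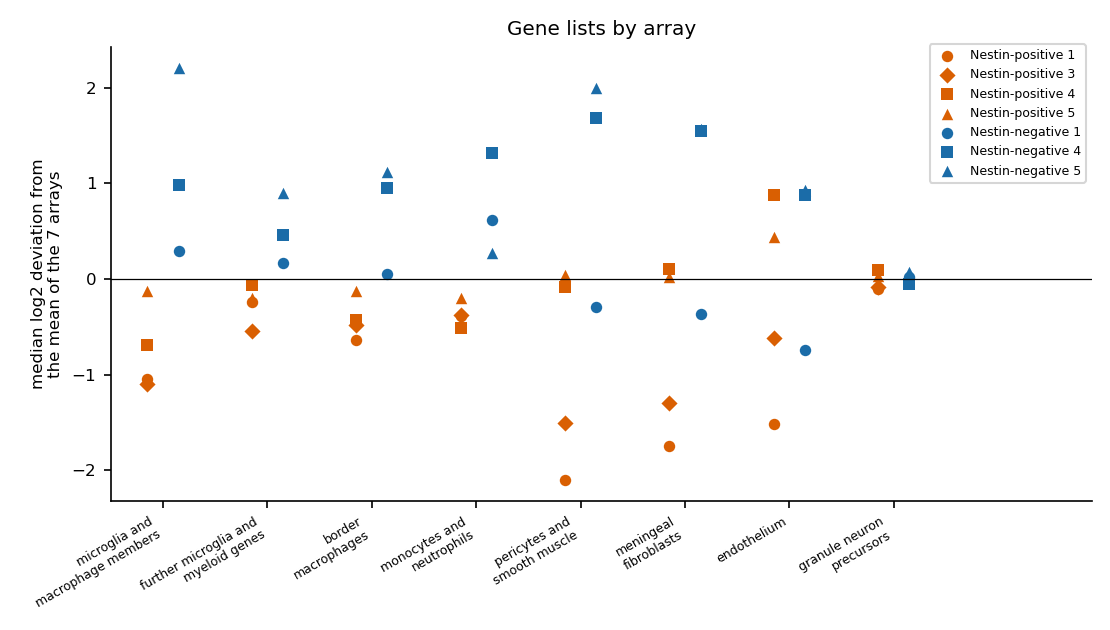
Median over each gene list of the log2 deviation from the mean of the 7 arrays, with 1 point per array (orange, Nestin-positive; blue, Nestin-negative; the marker gives the replicate number). For the 36 microglia and macrophage genes the Nestin-positive arrays lie at -1.10 to -0.13 and the Nestin-negative arrays at 0.30 to 2.21, while for pericyte and meningeal genes Nestin-negative replicate 1 lies below Nestin-positive replicate 5. In all 3 lists the Nestin-positive array of each same-numbered pair is the lower one.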

How the data were processed

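RNA of sorted cells was measured on 1-colour Affymetrix arrays. The deposited values are MAS5 signal intensity, per the submitters' processing notes, and each array had the same 2% trimmed mean of 500.0. MAS5 subtracts mismatch signal, which makes ratios of dim values noisy.

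Of 45101 probe sets, 64 controls were left out. The platform annotation, with symbols brought up to date from RefSeq (GRCm38.p6), gave 1 gene for 34945, several for 932 and none for 9160. Log2 was taken without a pseudocount or filter. The probe set with the highest mean over all arrays stood for its gene. Groups came from the sample titles; limma 3.58.1 ran in R 4.3.3 (intensity trend, two-sided, Benjamini-Hochberg over all 45037 probe sets, threshold 0.05). The fit was checked on simulated data with changes planted in bright probe sets only and without pairing. That check does not cover dim members or paired arrays. Where a gene was under the array median in all Nestin-positive samples, "at least" folds set the Nestin-negative mean against the mean of the Nestin-positive array medians, on the log2 scale; "dim values raised" sets each signal under its array median to it.

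Same-numbered arrays deviated together from their group means (r = 0.71 in replicate 1, 0.39 in replicate 4 and 0.47 in replicate 5, over 11089 non-independent genes; -0.60 to 0.19 between differing numbers), so the numbers were taken to pair the samples. Deviations from a group mean cancel out within each fraction, so a positive r within pairs pushes r between differing numbers down. That contrast is thus partly fixed in advance. The replicate block uses 3 pairs, with 2 residual degrees of freedom before moderation and 11 after it, and leaves out Nestin-positive replicate 3.

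Members, roles and gene lists were chosen with earlier results of these data known. Given array by array are the members called in either fit, up to 4 by p-value in each role, and most others; of other lists, up to 4 by p-value without the block. Alternatives were other normalization, filters, pseudocount, moderation, random block and arrays left out.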

Additional observations from a re-analysis of the deposited data

Results flagged for a closer look

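In 6 of the 36 genes, 1 of the 4 Nestin-positive arrays lay far from the other 3, by the gap to its nearest neighbour as a share of the whole range of log2 signal (above Dixon's 95% value); chance gives about 1 in 20 groups. The share was 0.953 for P2ry12, highest on replicate 5 (signal 45.1), 0.894 for Mpeg1, highest on replicate 5 (88.2), and 0.831 for Cd68, highest on replicate 1 (70.3). It was 0.976 for P2ry13, lowest on replicate 3 (15.2), 0.912 for Laptm5, lowest on replicate 1 (68.6), and 0.853 for Ptprc, lowest on replicate 1 (2.66). Of these signals only that of Mpeg1 exceeded its array median.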

How the results depend on the processing

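The median log2 change over the members stayed negative under all 20 alternatives. It was -0.90 with dim values raised and -0.95 with that and the replicate block, and -1.48 to -2.39 with each array left out. Without the block, limma called no member and no probe set at all under quantile normalization, log2(signal + 16), dim values raised, no intensity trend, a filter on mean signal, or with any array left out. With an array left out, 22 to 28 members were lower at an unadjusted p under 0.05, beside 1427 to 2569 of the 45037 probe sets. The replicate block called 24 member probe sets, 20 member genes and 524 probe sets lower in all; with dim values raised it called 13, 11 and 497, and as a random block 2, 2 and 96. With the block and without pair 1, 4 or 5, it called 30, 23 or 19 member probe sets, 25, 18 or 15 member genes and 602, 527 or 642 probe sets in all. These fits without a pair had 1 residual degree of freedom before moderation and 29, 14.2 and 75.4 after it. Their spread is thus borrowed almost wholly from other probe sets, so nothing on robustness is read from these counts. Gpr34, Laptm5, Cd52 and Ccl3 lost their calls without pair 4, and Cx3cr1, Fcer1g, Laptm5, Cd53, Cd52 and Ccl3 without pair 5. The filter on 3 arrays called 2 members, Csf1r and Lyz2, which both passed it with the help of the Nestin-negative arrays, where they are high, so these calls are no added support. Non-overlapping groups were counted in 15 members under that filter and 11 under the filter on mean signal, since fewer members were kept. On signals divided by the array median, an alternative chosen after seeing the data, there were 16. With each array left out they numbered 26 to 32. Leaving out an array cannot make separate groups overlap, so nothing is read from that range.

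Signs of dim members turned. The log2 change of Spi1 was 0.10 under the block, 0.28 under it when pair 4 was dropped and 0.54 when pair 5 was; with single arrays left out it ran from -0.84 to 0.10, above 0 when Nestin-positive replicate 3 (0.10) or Nestin-negative replicate 4 (0.02) was dropped. The log2 change of Tmem119 was -0.28 with dim values raised, -0.32 with that and the block, and -0.40 under the block when pair 4 was dropped; single arrays left out gave -0.24 (Nestin-negative replicate 4) to 0.85. The log2 change of Trem2 was -0.74 as the mean of its probe sets and ran from -0.22 (Nestin-negative replicate 1 left out) to 1.15. The log2 change of Itgam ran from -0.85 to 0.10, the latter when Nestin-negative replicate 1 was dropped. The causes were not tested. Signals under the array median limit the size of most folds.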
